A study of Mus musculus with 6 samples.

Results

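The open chromatin of GL261 cells at rest was described from the 2 ATACseq libraries made at 21% O2. ATACseq uses the transposase Tn5, which inserts sequencing adapters where DNA is not covered by nucleosomes, so fragments pile up over promoters, enhancers and other accessible sites. GL261 is a mouse glioma cell line, first raised with a carcinogen in the brain of a C57BL/6 mouse. The cells carried the plasmid pEGFP-N1, which drives a green fluorescent protein from a viral promoter and is not part of the mouse reference, and they were grown in DMEM with serum. They were kept at 21% O2 (normoxia) in an experiment with exposures of 16 h, fixed with formaldehyde, lysed and transposed. The series holds 6 libraries from 3 oxygen levels, with 2 libraries at each level, and the 4 hypoxic libraries entered none of the values given for normoxic cells. The labels do not say whether the normoxic replicates came from separate cultures. With 1 group and 2 libraries no test was made, and agreement between the libraries is the measure of error throughout.

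A shared peak was a stretch of more than 200 bp covered by a peak in both libraries. There were 30746 shared peaks, covering 21.9 Mb, from lists of 33006 peaks in replicate 1 and 36188 peaks in replicate 2. The whole series held 41308 consensus peaks, and 30564 of them contained a normoxic shared peak. Strength is given in 2 ways for each library, always as replicate 1 and then replicate 2. The fold is the authors' ratio of the fragment pileup at the summit to a local background, and the pileup is the number of overlapping fragments at the summit, recovered from the fold and its p-value. The median fold over each list was 8.39 and 8.98, and the median pileup was 52 and 60 fragments. The weakest listed peaks had a pileup of 11 in both libraries, so a site without a peak had too few fragments at this depth and is not shown to be closed. In a population of cells, a site open in fewer cells and a site less open in every cell cannot be told apart.

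As background, open chromatin falls into promoters, which sit at transcription start sites and are often rich in CG dinucleotides, and distal sites, many of which act as enhancers and differ more between cell types. Promoters rich in CG are bound by general factors such as SP1, NFY and ETS proteins. Distal sites in cultured and transformed cells are often bound by AP-1, a dimer of FOS and JUN proteins, and by TEAD and SOX factors. Gliomas share lineage factors with neural stem cells, astrocytes and oligodendrocyte precursors, among them SOX2, SOX10, OLIG1 and OLIG2.

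The letters of general factors were looked for before the start site at 3 of the strongest protein-coding promoters by pileup. The 150 bases before the annotated start are printed for the 3 unique peaks with the highest pileup among those within 500 bp of a protein-coding start whose upstream stretch held no annotated exon, on the strand of the gene in mm10. Capitals mark the GC box of SP and KLF factors (GGGCGG), the CCAAT box of NFY (CCAAT) and an ETS core (CCGGAA), each searched on both strands. Slc25a28, coding for the mitochondrial iron importer mitoferrin-2, is at chr19:43674882-43675031 on the minus strand. Myo10, coding for a myosin of filopodia, is at chr15:25622375-25622524, and Sp1, coding for the GC-box factor itself, is at chr15:102406183-102406332, both on the plus strand.
Slc25a28: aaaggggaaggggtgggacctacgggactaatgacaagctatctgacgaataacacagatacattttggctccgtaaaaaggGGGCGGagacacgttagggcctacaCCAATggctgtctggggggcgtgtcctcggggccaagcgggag
Myo10: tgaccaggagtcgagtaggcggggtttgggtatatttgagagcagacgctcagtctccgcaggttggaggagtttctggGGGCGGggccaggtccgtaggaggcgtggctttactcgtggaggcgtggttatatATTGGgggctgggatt
Sp1: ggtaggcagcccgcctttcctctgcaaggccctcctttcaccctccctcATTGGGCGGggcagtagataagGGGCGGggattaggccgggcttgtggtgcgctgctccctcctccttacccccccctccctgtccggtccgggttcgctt
Every one of the 3 held a GC box and a CCAAT box, and none held the ETS core. In Sp1 the reverse CCAAT letters run into the first of its 2 GC boxes. Their pileups were 561 and 828 for Slc25a28, 532 and 810 for Myo10 and 562 and 721 for Sp1.

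Outside promoters, the letters of AP-1, TEAD and SOX were looked for in the 3 strongest unique peaks by pileup. The 200 bases around the summit are printed on the plus strand of mm10 for the 3 highest, with the letters of AP-1 (TGANTCA), TEAD (CATTCC) and SOX (ACAATG) in capitals where they occur on either strand. All 3 lie in introns. The first is in the long non-coding gene Gm41335 and has Gsdmc as the nearest protein-coding start (chr15:63675670-63675869), the second is in Pdzd2 (chr15:12490911-12491110) and the third in Def8 and the overlapping Gm20388 (chr8:123426505-123426704).
Nearest Gsdmc: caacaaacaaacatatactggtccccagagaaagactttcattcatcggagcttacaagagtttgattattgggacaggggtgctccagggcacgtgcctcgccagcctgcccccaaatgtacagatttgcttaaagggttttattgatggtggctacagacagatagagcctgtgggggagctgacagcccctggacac
Pdzd2 intron: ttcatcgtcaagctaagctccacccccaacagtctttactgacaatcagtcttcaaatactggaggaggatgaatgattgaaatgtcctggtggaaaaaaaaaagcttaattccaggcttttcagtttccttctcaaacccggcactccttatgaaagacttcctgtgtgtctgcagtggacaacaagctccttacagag
Def8 intron: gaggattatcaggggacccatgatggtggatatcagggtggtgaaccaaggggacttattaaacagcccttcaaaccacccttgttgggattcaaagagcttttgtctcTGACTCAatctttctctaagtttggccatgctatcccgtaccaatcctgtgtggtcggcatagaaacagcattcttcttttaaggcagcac
The Def8 window held 1 AP-1 match, and the window nearest Gsdmc and the Pdzd2 window held no AP-1, TEAD or SOX letters. The absence says only that these letters are not in these 200 bases.

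Of the letters searched, those of AP-1 gained the most percentage points at distal summits. They are shown for the 5 unique distal peaks with the highest fold among those that held them. Each line gives 61 bases of the plus strand of mm10 with the match in capitals. The peak nearest Nr2f1, coding for an orphan nuclear receptor, gave chr13:78809895-78809955, and an intron of Sox5, coding for an HMG-box factor, gave chr6:144088419-144088479. The others lay in or near Fyb (chr15:6565112-6565172), Rgs2 (chr1:143941631-143941691) and St3gal5 (chr6:72146943-72147003), which code for an adaptor protein, a regulator of G-protein signalling and the GM3 ganglioside synthase.
Nr2f1: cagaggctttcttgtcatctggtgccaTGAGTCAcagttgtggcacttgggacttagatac
Sox5: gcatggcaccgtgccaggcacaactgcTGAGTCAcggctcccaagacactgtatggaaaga
Fyb: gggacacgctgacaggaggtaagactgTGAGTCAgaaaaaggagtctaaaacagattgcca
Rgs2: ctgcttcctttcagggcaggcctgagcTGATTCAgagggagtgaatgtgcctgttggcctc
St3gal5: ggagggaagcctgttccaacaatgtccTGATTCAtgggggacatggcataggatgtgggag
These peaks had folds of 17.9 and 20.4 (Nr2f1), 16.8 and 20.2 (Sox5), 17.0 and 18.8 (Fyb), 17.8 and 17.4 (Rgs2) and 16.7 and 18.6 (St3gal5). The Fyb peak also had a high pileup, 347 and 472, against 88 and 107 at Rgs2, so similar folds stood on very different numbers of fragments.

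The strongest peak of all was on chromosome 1 at the start of the long non-coding gene Gm10222, with a fold of 38.2 and 40.0 and a pileup of 6405 and 7162. It covered chr1:24612386-24613159. Of the 32-base words in the 200 bases around its summit, 85.8% also occur in the mitochondrial genome, and 100 bases of it are printed from the plus strand of mm10 (chr1:24612701-24612800) to show a base content unlike that of the promoters.
Gm10222: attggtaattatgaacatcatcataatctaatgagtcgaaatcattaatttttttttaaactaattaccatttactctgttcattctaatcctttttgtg
These bases had a GC content of 24.0% and 1 CG. The authors removed mitochondrial reads, and whether the remaining fragments here came from mitochondrial DNA was not tested.

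The order of the strongest peaks depended on which measure was ranked. Of the 10 strongest by fold, 1 was among the 10 strongest by pileup and 2 were among the 10 strongest by the authors' −log10 q-value. A summit was called unique when at least 90% of its 32-base words occur once in the assembled nuclear chromosomes and none is mitochondrial, a rule added after the values were seen. By that rule 29190 shared peaks (94.9%) were unique. The 10 strongest by fold held 9 that were not, while the 10 strongest by pileup held 3. Copies that are missing from the assembly, as most ribosomal RNA genes are, are not counted by this rule.

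Behind Gm10222, ranks 2, 3 and 5 by fold were held by 3 peaks in a stretch of chromosome 6 that lies 51858 to 64935 bp from the start of Pdia4, the gene of a protein disulphide isomerase of the endoplasmic reticulum. The first of them (chr6:47753466-47754433) had a fold of 32.6 and 35.0 with a pileup of 209 and 277, and its words had a median of 16 copies in the genome. A peak in the 3′ UTR of Lars2, coding for the mitochondrial leucyl-tRNA synthetase, held rank 4 and reached 29.7 and 29.6 with 2 copies. Peaks named for Rsrc1, Zfp804b and N6amt1 were at least 99.3% repeat, with medians of 494, 1075 and 673 copies. The peak at the small RNA gene Gm23935 had 3 copies and a fold of 24.9 and 26.4. The only unique summit among the 10 was an intronic peak of Cntnap5b (chr1:100180105-100180409), which codes for a protein of the contactin-associated family, with a fold of 27.5 and 28.6 and a pileup of 126 and 128. Whether this sequence resembles ribosomal RNA genes missing from the assembly was not tested.

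With unique summits, the fold ranking after Cntnap5b turned to compact promoters of 521 to 728 bp. They belonged to Lhpp, Tnfrsf22, Zfp963, Rpp40, Fsip1, Gorab, Cenpw, Hibch and Idi1. The fold was 18.9 and 22.1 at Lhpp, which codes for a phosphatase, and 18.4 and 21.2 at Rpp40, which codes for a subunit of ribonuclease P. It was 17.7 and 21.9 at Cenpw, a centromere protein gene, and 19.2 and 19.9 at Idi1, which acts in isoprenoid and sterol synthesis. Outside promoters the unique leaders by fold after Cntnap5b lay 88751 bp from the start of Axin2, a negative regulator of WNT signalling (20.1 and 18.2, pileup 514 and 477), 610089 bp from Nr2f1 (17.9 and 20.4) and 141178 bp from Zxdb (18.9 and 19.0). Likeness of the first of these to ribosomal RNA genes was not tested either. Another unique peak, 10784 bp from the Axin2 start, had 17.5 and 19.6. These folds stood on low backgrounds, 2.16 to 13.9 fragments in replicate 1 at the unique peaks named here except the first Axin2 peak, where the background was 24.6.

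By pileup, the peaks after Gm10222 lay in the copy of the ribosomal RNA genes that is assembled on chromosome 17. They were annotated to the non-coding genes Gm26917 (chr17:39843165-39846746, pileup 1887 and 1716) and AY036118 (chr17:39847451-39848693, pileup 1579 and 1349). Their folds were only 3.05 and 3.32 and 2.61 and 2.48, since the local background stood at 617 and 605 fragments in replicate 1. Replicate 1 was the higher library at both, against the direction of most peaks. The next was an intronic peak of Def8 with 4 copies (chr8:123433733-123434397, 662 and 940).

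Peaks with unique summits, as counted in the assembly, filled the rest of the pileup ranking. The intronic peak of the non-coding gene Gm41335 (chr15:63675039-63676529) had 675 and 907 fragments. Its nearest protein-coding start, at 132989 bp, was that of Gsdmc, which codes for a gasdermin, a family of pore-forming proteins. The Pdzd2 intronic peak (chr15:12490543-12491705) had 686 and 793. A peak at the non-coding gene Gm27782 (chr15:62078800-62079899) had 591 and 878, and its nearest protein-coding start, at 91987 bp, was that of Myc. Promoter peaks followed at Hjurp, which codes for the chaperone of the centromeric histone CENP-A (chr1:88276955-88278338, 581 and 849), Slc25a28 and Myo10. In both libraries each of these unique peaks exceeded 500 fragments.

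Further unique peaks outside promoters were nearly as tall. Ppm1h, coding for a phosphatase of RAB proteins, had 515 and 738 in an intron, and a second intronic peak of Pdzd2 (chr15:12517976-12519367) had 494 and 719. A peak 153291 bp from Has2, which codes for a hyaluronan synthase, had 524 and 667. An intronic peak of Mbp, the gene of myelin basic protein, had 478 and 715, and an intronic peak of the tetraspanin gene Tspan14 had 496 and 690. A further peak in an exon of Dbi, coding for the acyl-CoA-binding protein, had 465 and 722.

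Many of the tallest peaks lay on chromosome 15. Of the 100 peaks with the highest pileup, 24 lay on chromosome 15, which held 5.14% of all shared peaks, and 13 lay on chromosome 10, which held 5.96%. By fold, a measure set against the local background, 2 and 8 of the top 100 lay there. The 100 strongest by pileup included 72 promoter peaks and 3 without a unique summit, and the 100 strongest by fold included 68 promoter peaks and 47 without a unique summit.

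Width followed pileup more than fold. Shared peaks had a median width of 658 bp, with quartiles of 431 and 915 bp and a range of 201 to 3868 bp, and Spearman's correlation over shared peaks was 0.678 between width and pileup and 0.425 between width and fold. The widest shared peak (chr2:22586801-22590668, 3868 bp, at the non-coding gene Gm13340) also held mitochondrial words, 69.2% of them, and had a pileup of 351 and 368. Of the 10 widest, 7 had no unique summit. The intergenic peaks nearest Nus1 (3518 bp) and Igfbp7 (3227 bp) were 100% repeat with medians of 11101 and 12270 copies, and their pileups were only 29 and 33 and 41 and 37.

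Among unique summits the widest after the ribosomal locus were promoter peaks named for Ppp2r3d, a phosphatase subunit gene (3085 bp, pileup 313 and 442), and Alyref2 (3030 bp, 357 and 441). The summit of the latter lay 1729 bp from the Alyref2 start and nearer to that of another gene, Gm24871, at 1414 bp. The promoter of Tmc6 spanned 2874 bp. Wide distal peaks lay 50816 bp from Tob1, an antiproliferative gene (2620 bp, 190 and 269), and in introns of Col15a1 (2617 bp, 86 and 111), which codes for a basement membrane collagen, and of Angpt2 and the overlapping Mcph1 (2604 bp, 106 and 137). The folds of these peaks in replicate 1 ran from 3.89 at Alyref2 to 6.62 at Tob1.

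Promoters made up 44.0% of the shared peaks. A peak was a promoter peak when it lay within 2000 bp of a start site, and 13537 peaks did. Introns held 8119 (26.4%), intergenic sequence 7677 (25.0%), exons 980 (3.19%), 3′ UTRs 389 (1.27%) and 5′ UTRs 44 (0.143%). Of the intergenic peaks, 993 (12.9%) lay more than 50 kb from any start site, and peaks outside promoters lay at a median of 15360 bp from one. At promoters, 85.0% of the peaks were at a protein-coding start. The summit lay within 250 bp of the start in 10057 promoter peaks (74.3%), at a median of 18 bp upstream, and 56.9% of the summits were upstream.

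Promoter peaks were taller, wider and richer in GC than other peaks. Their median pileup was 84 and 112 fragments against 41 and 53 outside promoters, a ratio of 2.08 as the mean of the libraries, and their median width was 834 against 529 bp. The difference in fold was smaller, 9.89 and 11.0 against 7.94 and 9.06 and the median local background was also higher at promoters, 7.67 and 9.47 against 4.13 and 4.80 fragments. Median GC content was 60.7% at promoters and 48.9% elsewhere. Among the remaining classes the median pileup was close, from 39 and 49 in intergenic peaks to 49.5 and 62.5 in the few 5′ UTR peaks.

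The taller promoters were those rich in CG. Of the promoter peaks, 67.1% had a GC content of at least 50% with a CG frequency of at least 0.6 of that expected from base content, against 3.46% outside promoters. These 9082 CG-rich promoter peaks had a median pileup of 98 and 131 and a median width of 894 bp. The other 4455 promoter peaks had 56 and 74 and 651 bp, nearer to distal peaks. Outside promoters, 595 CG-rich peaks had 51 and 67 and the other 16614 had 41 and 53, so the difference by CG content was smaller there in both libraries.

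The promoter share rose steadily with pileup. It was 17.1% in the weakest 10% of shared peaks by pileup and 70.9% in the strongest 10%. By fold it was 37.8% in the weakest 10%, fell to 30.8% in the next group and then rose to 67.9%. The plot of summits around start sites shows how narrow the promoter signal was.

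**Figure D1:**
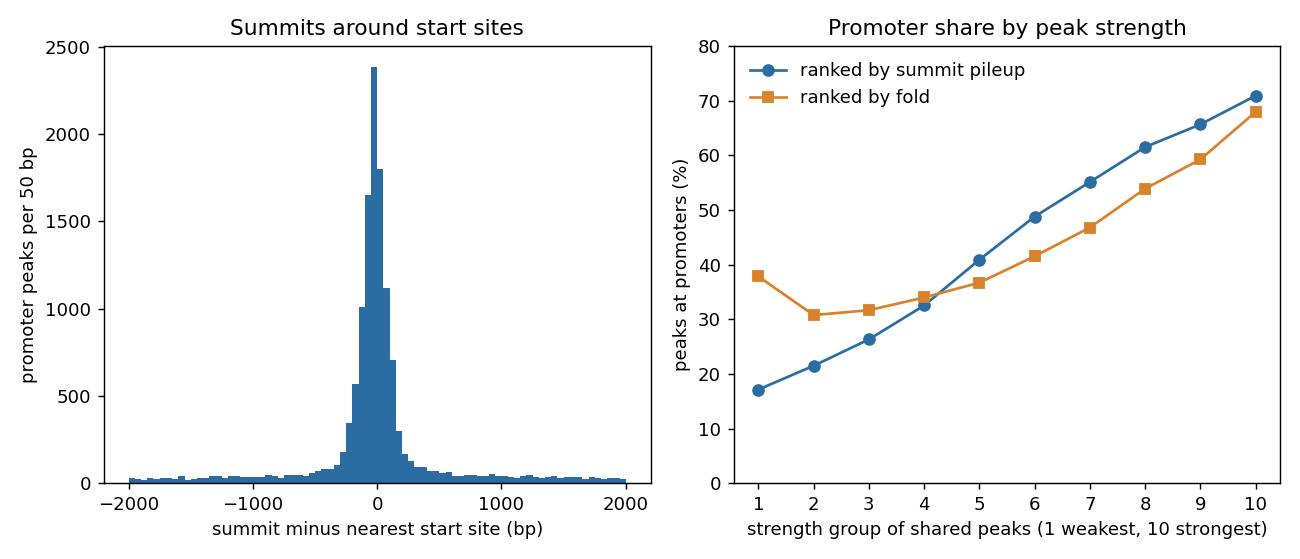
Left, number of promoter peaks per 50 bp against the distance of the summit from the nearest start site in bp (negative is upstream), and right, the percentage of shared peaks at promoters in 10 equal groups ranked by pileup (circles) or fold (squares). Summits gathered at the start site, and the promoter share reached 70.9% by pileup and 67.9% by fold in the strongest group.

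Promoter and distal summits carried different motif letters. The exact letters of 16 motifs were searched on both strands in the 200 bases around each summit and in 200 bases lying 2 kb away, and the share of windows with a match is a description of letters and not of bound factors. AP-1 letters (TGANTCA) stood in 26.9% of the 17209 windows outside promoters and in 6.04% of their comparison windows. At promoters the same letters stood in 6.57% and 5.90%. AP-1 letters thus marked distal summits and were close to their comparison level at promoters.

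Several other letters were also more frequent at distal summits than 2 kb away. TEAD letters (CATTCC) stood in 16.0% of distal windows against 10.8% of comparison windows, SOX letters (ACAATG) in 14.5% against 10.3%, and an E-box (CAGCTG) in 16.2% against 9.48%. NFI letters (TTGGC) stood in 39.0% against 28.5%, and at promoters in 38.9% against 29.1%, so this short motif gained at both kinds of site. RUNX letters (TGTGGT) stood in 16.4% of distal windows and 15.7% of comparison windows, close to each other. GATA letters (AGATAA) and TATA letters (TATAAA) were less frequent at distal summits than 2 kb away, 6.44% against 10.6% and 7.68% against 13.6%. Base composition differs between summits and comparison windows, and its part in these shares was not tested.

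The letters of several general factors were most frequent at promoters. The GC box (GGGCGG) stood in 52.8% of promoter windows against 4.13% of comparison windows, and in 9.64% of distal windows against 2.93%. ETS letters (CCGGAA) stood in 19.3% against 2.28%, and in 4.52% of distal windows against 2.17%. NRF1 letters (GCGCATGC) stood in 3.47% of promoter windows against 0.436%. CREB letters (TGACGTCA) stood in 2.30% against 0.192%, and in 0.552% of distal windows against 0.110%. A core of the CTCF site (AGGNGGCNC) stood in 9.32% of promoter windows against 2.70% and in 5.12% of distal windows against 2.18%, and the E-box of MYC and USF (CACGTG) in 6.91% and 3.37%. YY1 letters (AAGATGGC) stood in 2.97% of promoter windows against 1.54%, and in 1.48% of distal windows against 1.54%. The CCAAT box was in 29.0% of all promoter windows and in 41.2% of the 1000 promoter peaks with the highest fold, against 23.9% of the comparison windows. At distal summits it stood in 23.1% against 24.4%.

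AP-1 letters were compared with peak strength. Among unique distal peaks, 33.2% of the 1000 with the highest fold held them, against 25.7% of the 1000 with the highest pileup and 21.6% of the 1000 with the lowest pileup. Over all distal peaks the share was 26.9%, and no group of lowest fold was taken. The 4635 distal peaks with AP-1 letters had a median fold of 8.43 and 9.67 and a median pileup of 43 and 57. The 12574 without had 7.79 and 8.84 and 41 and 52. Both differences had the same direction in each library. They were not particular to AP-1. Distal peaks with SOX letters had a median pileup of 44 and 58 against 41 and 53 without, and those with TEAD letters 43.5 and 56 against 41 and 53. Their median folds were higher too. Peaks with RUNX, ETS or CTCF letters did not have a higher median pileup than those without.

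**Figure D2:**
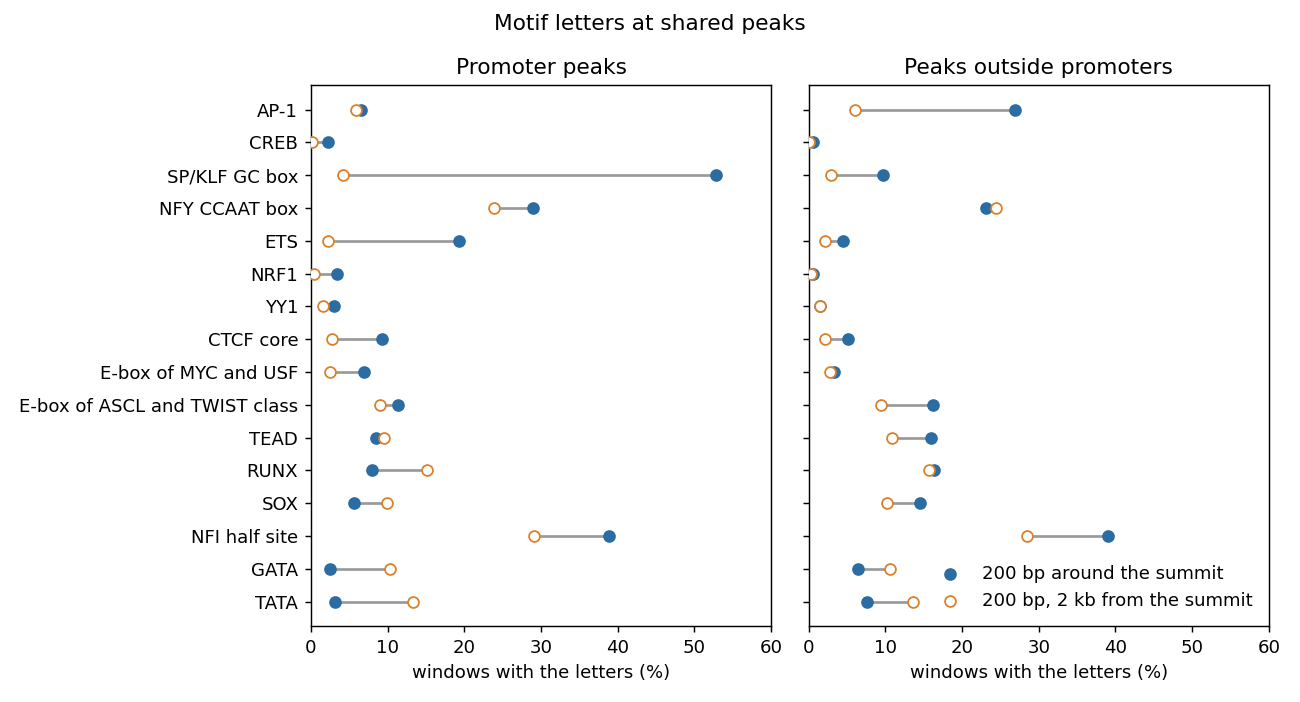
Percentage of 200-bp windows that hold the letters of each of 16 motifs on either strand, at promoter peaks (left) and peaks outside promoters (right), with filled circles for windows at the summit and open circles for windows 2 kb away. The GC box reached 52.8% at promoters, and AP-1 letters reached 26.9% outside promoters against 6.04% in the comparison windows.

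About as many shared peaks lay in clusters as stood alone. With peaks joined across gaps of up to 12.5 kb, 14844 peaks (48.3%) stood alone and 5996 clusters held 2 or more, of which 16 held 10 or more. The largest had 18 peaks in 108.1 kb (chr1:135686723-135794859) over Csrp1, Phlda3 and Tnni1, of which 12 were outside promoters. These genes code for a LIM-domain protein, a target of p53 and the troponin I of slow muscle. The median pileup over the cluster was 79.5 and 98.

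The second cluster was the main histone gene cluster on chromosome 13 (chr13:23506471-23586092), with 17 peaks in 79.6 kb. Of these, 15 were promoter peaks of replication-dependent histone genes such as Hist1h4h, Hist1h2bh and Hist1h1d, and the median pileup was 126 and 183. The third lay over Mbp on chromosome 18 (82492427 to 82564635), with 15 peaks in 72.2 kb, 12 of them outside promoters. Its tallest peak had 478 and 715 fragments and its median was 70 and 86. Mbp codes for a main protein of myelin, and the locus also makes the Golli transcripts from a start far upstream.

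Both remaining clusters of the leading 5 had 12 peaks. The cluster over Sept9, a septin gene, had 10 outside promoters, and that over Plec, Parp10 and Grina had 9 at promoters with a median pileup of 154 and 180.5. Clusters of 12 peaks also lay over the Hsp90ab1 region of chromosome 17 and over Rprd1b and Tgm2, the transglutaminase 2 gene, where 11 of 12 were outside promoters. In fixed windows of 100 kb, the histone locus led with 17 peaks. A window of chromosome 8 with Klf1, Prdx2 and Junb followed with 16, of which 11 were promoter peaks. Windows over Csrp1 held 15, and windows over Aurkb and Per1 and over Mbp held 14 each.

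Counting the peaks outside promoters by their nearest protein-coding start, a count chosen after the values were seen, put Zfp608 first with 27 peaks (median pileup 69 and 102). It was followed by Xylt1, coding for a xylosyltransferase that starts proteoglycan chains, with 20, and Sox5 with 19 (63 and 86). Cited2, Clint1, Tenm3 and Zfp217 had 18 each. Trib1, a pseudokinase gene that neighbours Myc on chromosome 15, had 17 with a high median pileup of 114 and 161. Mbp had 15 and Ets1, coding for an ETS factor, had 14 (71 and 111). Genes with large intergenic flanks collect more peaks under such a count.

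Open and closed genes were read from peaks near start sites. A gene was open when a shared peak lay within 2000 bp of any of its start sites, and closed when neither library had a peak there. Of 21938 protein-coding genes, 11864 were open (54.1%), 9640 (43.9%) were closed and 434 (1.98%) had a peak there that was not shared. Of long intergenic non-coding RNA genes, 16.3% were open. There were 22 lists of marker genes with 264 entries, and Pdgfra, Pdgfrb and Fgfr3 stood on 2 lists each. Where a second start site lies closer, the peak may belong to the neighbour.

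All 14 ubiquitous genes were open, against the 54.1% over all protein-coding genes. Their pileups ran from 40 and 58 at Hprt, an X-linked gene of purine salvage, to 241 and 368 at Ywhaz, with a median percentile of 76.6 among promoter peaks. At Tbp the start nearest to the peak was that of another gene, Psmb1.

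The glial and neural stem lists were open in part, so some markers of the labelled glioma identity were open and others were not. Of the neural stem and radial glia list 7 of 12 were open (58.3%), near the 54.1% of all protein-coding genes, at a median percentile of 83.7. The intermediate filament gene Vim was the strongest with 290 and 448, followed by Pax6 (237 and 376), Id1 (239 and 317), Sox2 (155 and 237), Nes (136 and 197) and Notch1 (107 and 131), with the Notch target Hes1 the weakest at 90 and 126. Msi1, Prom1 and Hes5 were among those with no peak, and Fabp7 had a peak that was not shared.

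Of the oligodendrocyte lineage list 9 of 12 were open (75%, against the 54.1% of all protein-coding genes), and they included its lineage factors. Mbp had 300 and 414 at its promoter, Sox10 had 181 and 242, and Pdgfra, the receptor of oligodendrocyte precursors, had 120 and 143. Olig1 had 100 and 130 and its neighbour Olig2 had 65 and 61. The weakest was Cspg4, which codes for the NG2 proteoglycan, at 32 and 46. Nkx2-2, Myrf and Cnp were also open, Nkx2-2 by a peak with its summit 1967 bp from the start. The closed members included Mog and Mag, genes of mature myelin.

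Of the astrocyte list 8 of 12 were open (66.7%, against the 54.1% of all protein-coding genes), at a lower median percentile of 43.2. The strongest were S100b, a calcium-binding protein gene, at 150 and 187, and Gfap, the astrocyte filament gene, at 122 and 150, though the Gfap summit lay 1358 bp from the start. Aldh1l1 was the weakest with 22 and 31. Aqp4, Slc1a2, Sox9 and Nfia had no peak at a start site, and Nfia held 7 peaks within the gene. The related factor gene Nfib was open with 95 and 98.

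Neuronal genes were mostly closed, with 4 of 13 open (30.8%, against the 54.1% of all protein-coding genes). Of the 4, 2 had part of a peak within 500 bp of a start, where 51.7% of all protein-coding genes were open. The 4 open genes were Dlx1 (163 and 233), Tubb3 (89 and 102), Slc17a7 (63 and 82) and Neurog2 (55 and 81). Their summits lay 1577, 1258, 1754 and 1125 bp from the starts. Rbfox3, Snap25, Gad1, Dcx, Dlx2, Elavl3, Neurod1 and Neurod2 had no peak. Of the regional genes of the forebrain and midbrain, 3 of 10 were open (30%, against the same 54.1%), among them Otx1 (124 and 167) and, weakly, Lhx2 (14 and 21). Emx1, Emx2, Otx2, En1, En2 and Gbx2 were closed and Six3 had an unshared peak.

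Mesenchymal genes were open in 10 of 14 (71.4%, against 54.1% of all protein-coding genes), and in 7 of 14 within 500 bp of a start, against 51.7% of all. Their peaks were low, at a median percentile of 24.7. Cd44, the hyaluronan receptor gene, had 138 and 204 and Fn1, the fibronectin gene, had 124 and 158. The factor genes Twist1 (38 and 30), Snai1 (25 and 26) and Zeb1 (29 and 39) were far lower, and Zeb2 had 67 and 123. Col1a2 was the weakest, with 14 and 20. Twist2, Snai2, Thy1 and Acta2 were closed.

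Lists of other tissues were mainly closed, where 54.1% of all protein-coding genes were open. Only peaks within 500 bp of a start were also counted, which left 51.7% of all protein-coding genes open. This lowered the lymphocyte count from 1 to 0 and the epithelial and hepatocyte counts from 2 to 1 each. No gene was open among 10 endothelial, 10 muscle and 10 germ cell genes, with an unshared peak at Pecam1. Of 12 pluripotency genes, Tfcp2l1 (23 and 31) was open and Pou5f1 and Nanog were not. Of 12 lymphocyte genes, Lck was open (52 and 63) by a peak with its summit 1829 bp from the start, and Ptprc, the gene of CD45, was closed. Epithelial genes were open in 2 of 12, Elf3 (40 and 60) and Krt8 (23 and 28), and Cdh1 and Epcam were closed. Hepatocyte genes were open in 2 of 10, Apoa1 (39 and 51) and Foxa3 (113 and 151), but the nearest start to the Foxa3 summit was that of Sympk, at 119 against 720 bp.

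The microglia and macrophage list tells of cells that a brain tumour can contain, although the sample was a cell line. Of its 12 genes 3 were open (25%, against the 54.1% of all protein-coding genes), among them Tmem119 (49 and 68) and Csf1r (37 and 45, summit at 1165 bp). The defining genes Spi1, Aif1, Itgam, Adgre1 and Cx3cr1 had no peak at their starts. Of 10 erythroid genes 4 were open (40%, against the same 54.1%), among them Klf1 (137 and 185), Nfe2 (46 and 55) and Epor (34 and 46). Within 500 bp of a start the count was 1, against 51.7% of all protein-coding genes. The summits at Klf1, Epor and Nfe2 lay 888 to 1319 bp from the starts, and Klf1 sits in the dense window with Junb. The globin genes Hba-a1 and Hbb-bs and the factor gene Gata1 were closed.

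**Figure D3:**
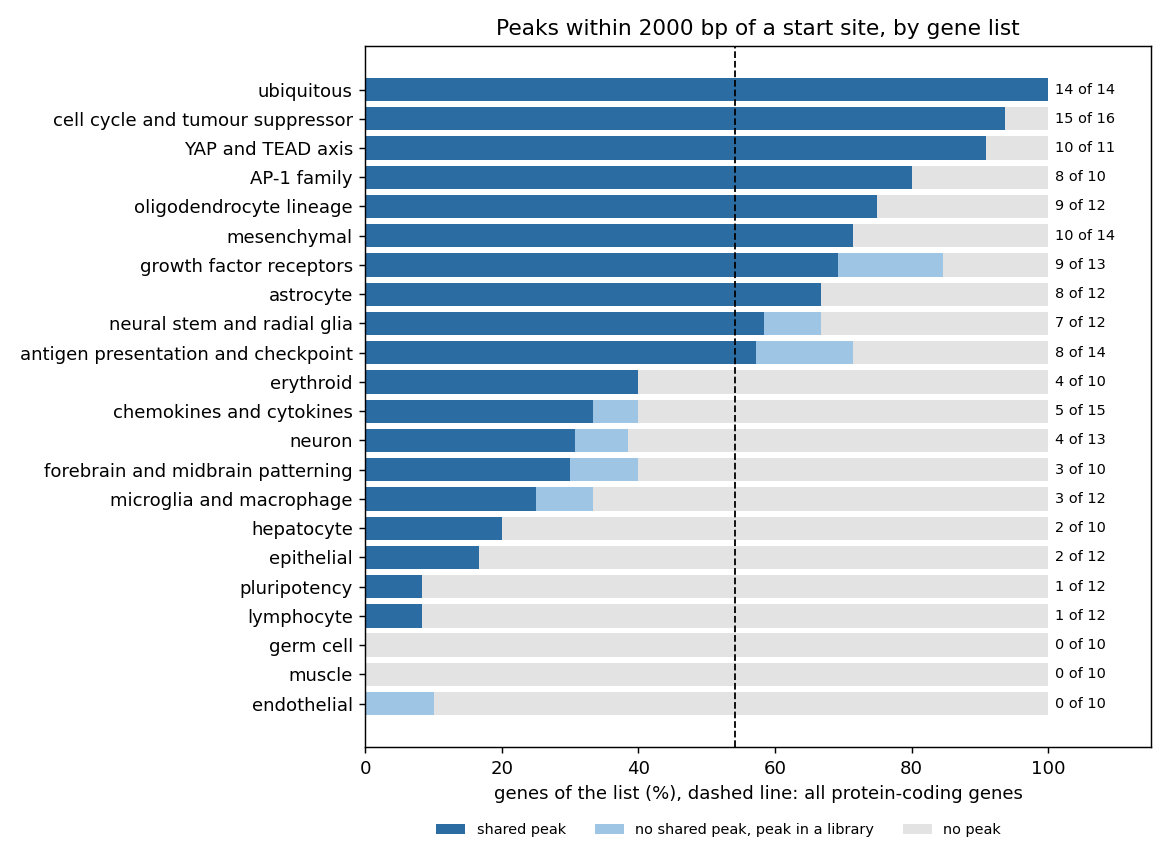
Percentage of the genes of each of 22 lists with a shared peak within 2000 bp of a start site (dark), with a peak that is not shared (light) and without a peak (grey), with the dashed line at the 54.1% of all protein-coding genes. Ubiquitous genes were open in 14 of 14, and endothelial, muscle and germ cell genes in 0 of 10 each.

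Nearly all cell cycle and tumour suppressor genes were open. Of the cell cycle and tumour suppressor list 15 of 16 were open (93.75%, against the 54.1% of all protein-coding genes). They were led by Cdk4 (325 and 489) and Myc (264 and 357), with Cdk6 the weakest (70 and 82). Mycn, the neural relative of Myc, was the closed one. The tumour suppressor genes Cdkn2a (160 and 212), Cdkn2b (126 and 158), Rb1 (80 and 90) and Nf1 (86 and 99) had peaks at their starts. The summit assigned to Trp53 lay 7 bp from the start of Wrap53 and 1028 bp from that of Trp53. A peak at a tumour suppressor gene says nothing of mutations in it.

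Of the growth factor receptors 9 of 13 were open (69.2%, against the 54.1% of all protein-coding genes), or 8 without Fgfr2. Leaving out Fgfr2, Erbb3 was the strongest (220 and 304), followed by Axl (120 and 168) and Pdgfra (120 and 143), and Met was the weakest (39 and 46). Egfr and Ntrk2 were closed, and Fgfr1 and Kit had a peak that was not shared. The peak counted for Fgfr2 was at the start of Ctbp2, since the annotation extends Fgfr2 across that gene, so it is not evidence for Fgfr2.

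AP-1 genes were open in 8 of 10, against the 54.1% of all protein-coding genes. Jun had 288 and 432, Fosl2 279 and 364, Jund 266 and 342 and Atf3 209 and 288. Fos (101 and 128) and Fosb (100 and 165) were lower, Batf3 was the weakest (22 and 31), and Fosl1 and Batf were closed. The YAP and TEAD list was open in 10 of 11, against the same 54.1%. Its strongest member was Ccn1 (181 and 291), a target gene, followed by the coactivator gene Wwtr1 (134 and 215). Tead1 (114 and 148) and Tead4 (119 and 197) were stronger than Tead2 (28 and 31) in both libraries, and Ankrd1 was closed.

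Of the antigen presentation and checkpoint list 8 of 14 were open (57.1%), near the 54.1% of all protein-coding genes, and they were genes of the class I pathway and its regulators. B2m had 128 and 191, Irf1 144 and 156 and Tap1 96 and 132, while H2-K1 (33 and 50) and H2-D1 (36 and 59) were weaker. The class II genes Ciita, H2-Aa and Cd74 and the checkpoint ligand gene Pdcd1lg2 were closed, and Cd274, coding for PD-L1, and H2-Ab1 had unshared peaks. Of the chemokines and cytokines 5 of 15 were open (33.3%, against the same 54.1%). They were Tgfb2 (137 and 184), Csf1 (74 and 101), Il6 (52 and 82), Tgfb1 (55 and 59) and Lif (26 and 33). Ccl2, Ccl5, Cxcl12, Il1b and Tnf had no peak.

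The Hox clusters, which record position along the body axis and are silent in most of the forebrain, differed in their share of open genes. Of 11 Hoxa genes 6 were open, near the 54.1% of all protein-coding genes. Among them were Hoxa4 (83 and 62), Hoxa5 (77 and 107), Hoxa3 (67 and 85), Hoxa10 (59 and 90) and Hoxa13 (49 and 63). None of the 10 Hoxb genes was open. Of 9 Hoxc genes only Hoxc10 was open (24 and 27), and of 9 Hoxd genes Hoxd8 (54 and 74) and Hoxd12 (43 and 57) were. Hoxc9 and Hoxd3 had unshared peaks. Hoxa4 was higher in replicate 1, unlike its neighbours.

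Gene families chosen by symbol after the values were seen spanned the whole range. Of 1135 olfactory receptor genes 5 were open (0.441%), of 331 vomeronasal receptor genes 1, and none of 57 keratin-associated and 42 beta-defensin genes. Keratin genes were open in 3 of 53, Krt8, Krt80 and Krt87. At the other end, 77 of 78 mitochondrial ribosomal protein genes, 43 of 45 proteasome subunit genes, 60 of 67 histone genes and 86 of 98 ribosomal protein genes (87.8%) were open. Zinc finger genes named Zfp were open in 317 of 394 (80.5%). Collagen genes (20 of 44) and integrin genes (16 of 31) lay near the 54.1% of all protein-coding genes, and clustered protocadherin genes were open in 5 of 57.

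On the autosomes and the X chromosome, differences in peak height were similar in both libraries. Relative to the median of autosomal promoter peaks, 85 and 114 fragments, promoter peaks were highest on chromosome 18 (1.36 and 1.32), chromosome 10 (1.27 and 1.29) and chromosome 15 (1.22 and 1.2). Leaving out the Y chromosome, which had 1 promoter peak (0.353 and 0.202), they were lowest on the X chromosome (0.576 and 0.623). Chromosomes 19 (0.800 and 0.772), 16 (0.800 and 0.798), 4 (0.835 and 0.807) and 9 (0.847 and 0.825) followed. Peaks outside promoters on chromosome 15 stood at 1.17 in both libraries, and those on the X chromosome at 0.821 and 0.861. On chromosome 19 the distal peaks, at 1.00 and 0.981, did not follow the promoters. Copy number of the chromosomes was not measured, and its part in these heights was not tested.

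The density of peaks also varied. Chromosome 11 had 19.0 shared peaks per Mb and chromosome 15 had 15.2, against 4.15 on the X chromosome. The Y chromosome had 10 shared peaks, 0.109 per Mb, and its few peaks outside promoters stood at 1.5 and 1.13 of the autosomal median. Protein-coding genes were open in 64.7% on chromosome 12, 44.3% on chromosome 14 and 35.9% on the X chromosome.

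**Figure D4:**
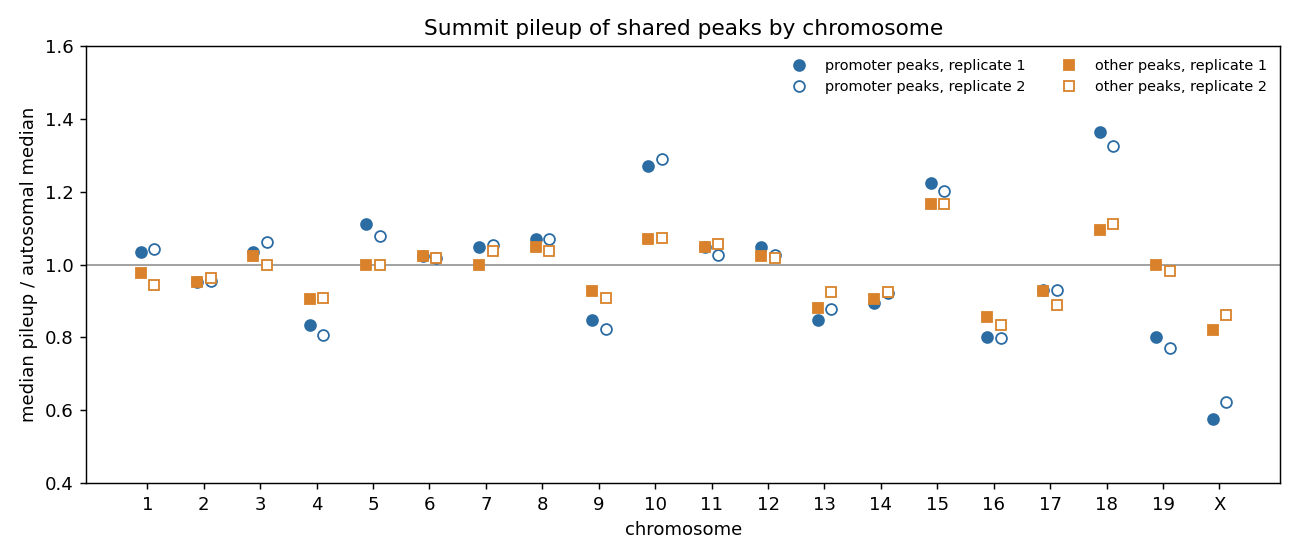
Median summit pileup of shared peaks on each autosome and the X chromosome divided by the autosomal median of the same library, for promoter peaks (circles) and other peaks (squares), with replicate 1 filled and replicate 2 open. Promoter peaks on chromosome 18 stood at 1.36 and 1.32 and those on the X chromosome at 0.576 and 0.623.

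The libraries agreed on strong peaks and differed in weak ones. Of the peaks of replicate 1, 92.8% lay in a shared stretch, and of those of replicate 2, 84.5%. Peaks that overlapped none in the other library numbered 2039 (6.18%) and 5266 (14.6%), and 75.2% of the bases covered in either library were covered in both. These peaks were low, with a median pileup of 18 and 21 and a median fold of 5.06 and 5.42. They were narrow, at 315 and 323 bp, and only 15.1% and 15.6% were at promoters, against 42.0% and 39.8% of all peaks of each list. In the weakest 10% by q-value 58.1% and 34.1% were shared, and in the strongest 10% all were.

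Values at shared peaks were closely ordered between the libraries, and among the measures listed here most closely by pileup. Spearman's correlation over shared peaks was 0.971 for pileup, 0.950 for −log10 q-value, 0.910 for fold and 0.855 for width, where peaks of 1 genome are not independent replicates. Replicate 2 was higher in pileup at 89.7% of shared peaks, with a median ratio of 1.32 and quartiles of 1.16 and 1.47. Its mean coverage of the genome was higher by a ratio of 1.09, and its folds by a median ratio of 1.11. The summits lay a median of 35 bp apart, within 50 bp at 62.0% of shared peaks and within 100 bp at 81.7%.

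**Figure D5:**
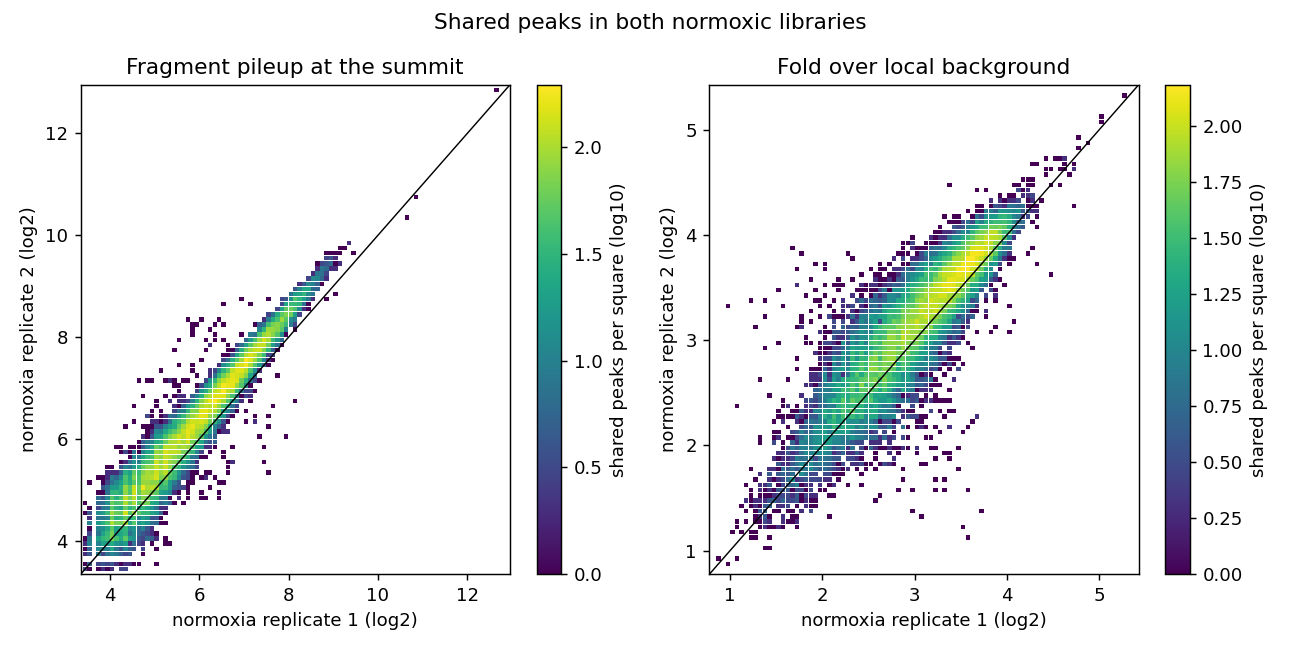
Density of shared peaks, with replicate 1 on the horizontal and replicate 2 on the vertical axis (both log2) and the colour giving the number of peaks per square (log10), for summit pileup (left) and fold (right). Most peaks lay above the line of equality, 89.7% for pileup, and the spread was wider for fold (Spearman 0.910) than for pileup (0.971).

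The top of the ranking was stable by pileup and less so by fold. Of the top 100 peaks of each library, 87 were in both by pileup and 57 by fold. Of the top 1000, 871 and 550 were in both, and of the top 5000, 4522 and 3751. Only 132 peaks were among the top 1000 by both measures, and Spearman's correlation between fold and pileup was 0.607.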

How the data were processed

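ATACseq peak lists of the 2 normoxic GL261 libraries were analysed. Per the labels and methods, the authors trimmed reads (Trimmomatic), aligned them to mm10 (Bowtie2 2.2.5) and removed duplicates, mitochondrial reads and blacklisted regions. They kept only properly paired reads above a cutoff of mapping quality, whose part in missing peaks at multi-copy genes was not tested. Peaks were called per library without pooling (MACS2 2.1.1.2, q-value threshold 0.001). The deposited lists give each peak's fold (a ratio over local background), −log10 p-value and −log10 q-value. Reads per library were not used here, so depth is given as fragments.

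The whole-number pileup and its background followed, for 100% of peaks within 0.001 in log10, from solving the authors' fold together with the p-value, and the smallest background, 2.16 and 2.36 fragments, was read as the genome coverage. The recovery, intersection and gene calls were tested on simulated data. A pileup counts overlapping fragments, so low peaks carry the larger counting error. Annotation was GENCODE M21 basic on GRCm38.p6, the assembly of mm10. Strongest peaks were ranked by the mean over libraries of the value divided by that library's median.

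Named peaks were the 10 strongest by fold and by pileup, the 5 strongest outside promoters, the 10 widest, the 5 largest clusters and the 5 densest windows. Named list genes were the strongest, the weakest and those against their list's majority, and further members were named after their values were seen. Values of some list genes are not reported here. Members and lists were chosen with earlier results of these data known. The unique-summit rule, nearest-gene counts, gene families, clusters ranked further and printed sequences were chosen after the values were seen. Alternatives covered the overlap, q-value, promoter window, gap, window, chromosomes, value ranked and each replicate left out. Software was Python 3.11.15 with numba 0.67.0, numpy 2.4.6, matplotlib 3.10.9, pandas 2.3.3, pysam 0.24.0 and scipy 1.17.1, and samtools 1.23.1.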

Additional observations from a re-analysis of the deposited data

How the results depend on the processing

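The count of 30746 shared peaks stayed between 27054 and 31099 under other overlaps, q-values, chromosomes and unique summits, and the single lists held 33006 to 36188. The promoter share of 44.0% became 46.9% at −log10 q of at least 10, 38.1% with a 500-bp window and 39.8 to 42.0% with either replicate alone. The median width of 658 bp became 672 bp with an overlap of at least 50% of both peaks, 709 bp at −log10 q of at least 10 and 672 to 686 bp with either replicate alone. The share of protein-coding genes open, 54.1%, became 53.2% at the 50% overlap, 52.4% at −log10 q of at least 10, 55.4% on autosomes, 52.4% with unique summits (chosen after seeing the data), 51.7% with a 500-bp window and 54.7 to 55.6% with either replicate alone. The pileup ratio of promoter to other peaks, 2.08, became 2.19 to 2.56 with either replicate alone and 1.84 to 2.18 otherwise. Spearman's correlation for fold, 0.910, was 0.926 at promoters and 0.881 elsewhere, and 0.971 for pileup and 0.950 for −log10 q. The largest cluster of 18 peaks held 8 with gaps of 5 kb and 31 with gaps of 25 kb, and the densest window of 17 peaks held 44 at 500 kb. Of the 10 strongest peaks by fold, 1 stayed when ranked by pileup and 2 by −log10 q. Open list entries, 123, ranged from 106 with a 500-bp window to 133, and 81 of 88 single list counts stayed within 1.5 times. Of the 7 beyond, 5 came with the 500-bp window (neuron, epithelial, lymphocyte, erythroid and hepatocyte), 1 at −log10 q of at least 10 (epithelial) and 1 without replicate 1 (endothelial). The cause of these differences was not tested. No paired analysis was possible because only 1 group was described and no test was made. Of the weakest 10% of peaks in replicate 2, 34.1% were shared, and the part of depth in this was not tested.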
